A study of Canis lupus familiaris with 25 samples.

Results

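Lipid droplet proteins are followed here through 10 genes, CIDEA, CIDEC, PLIN1, PLIN2, PLIN3, PLIN5, G0S2, PNPLA2, DGAT1 and DGAT2. These were chosen by name from the 24532 genes of the count table, with earlier results of these data known. All 10 were found there by symbol. They were measured by QuantSeq 3′, which counts a fragment close to the poly(A) tail of a transcript, in 25 archived formalin-fixed, paraffin-embedded (FFPE) dog tumors. The 10 hepatoid gland adenomas (HGA) are benign perianal tumors of dogs aged 8 to 14 years, 6 intact (2 females, 4 males) and 4 neutered (3 females, 1 male). The 11 primary apocrine gland anal sac adenocarcinomas (AGASAC) are malignant tumors of dogs aged 8 to 12.5 years, 2 intact females and 9 neutered dogs (3 females, 6 males), and the 4 metastases come from the dogs of AGASAC 1 to 4, of which 1 was intact and 3 were neutered. The labels name no treatment and no engineered allele. Each library is a piece of tumor tissue with its stroma, so a lower level can stand for fewer cells of a type or for less RNA per cell, and these cannot be told apart.

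A lipid droplet is a core of triglyceride and sterol ester inside a phospholipid monolayer that carries proteins. DGAT1 and DGAT2 make the triglyceride, perilipins (PLIN) coat the surface, CIDE proteins pass lipid from small droplets into larger ones, and PNPLA2, the adipose triglyceride lipase, starts its breakdown, which G0S2 restrains. Hepatoid glands are modified sebaceous glands, and sebaceous cells are known for filling with droplets, whereas apocrine glands of the anal sac secrete a fluid from a simple epithelium.

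Library depth, summed over genes, was 1562347 to 6389555 counts in HGA, 2581453 to 4218340 in AGASAC and 2857541 to 3289546 in the metastases. Levels are given as CPM, counts scaled to the TMM-adjusted library size over the 25 samples. Where a gene had 0 counts, up to 3 counts are still possible by counting error, or 0.543 to 1.84 CPM depending on the sample. Levels are compared between samples for the same gene and not between genes. The summed level of 8 markers of sebaceous and squamous epithelium was 4703 to 15739 CPM in HGA, 9.15 to 216.0 CPM in AGASAC and 2.39 to 88.2 CPM in the metastases. Of 8 listed markers of simple glandular epithelium, 7 were in the count table. They summed to 409.5 to 731 CPM in HGA, 5395 to 10193 CPM in AGASAC and 5263 to 10460 CPM in the metastases. By both sums each tumor matched its label as HGA or AGASAC, but they do not tell a metastasis from a primary tumor. Single markers varied. MC5R overlapped, at 1.81 to 731 CPM in HGA and 2.29 to 201 CPM in AGASAC. KRT79 was at 39.1 CPM in HGA 10, against an HGA median of 1701 CPM. RNA was extracted in batches, and the sequencing files carry names of a pair of naming series. HGA 10 was the only tumor of its extraction batch and the only HGA of naming series B.

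In the comparison of HGA versus AGASAC, which contrasts both tumors of the region, CIDEA, CIDEC, G0S2, DGAT1 and DGAT2 were higher in HGA, and PNPLA2 was lower. The test was edgeR's quasi-likelihood test on the 21 primary tumors, and a call needed a p of at most 0.05 after Benjamini-Yekutieli (BY) adjustment together with a log2FC of 1 or more in size. Of the 10 members, 8 passed the filter on low counts. Of these, 5 were called higher, where 12.6% of the 12070 tested genes were. The 1 called lower is a share close to that of all genes, where 12.5% were. As the members were chosen with earlier results of these data known, the shares describe them and test nothing. PLIN2 and PLIN3 were tested and not called, and PLIN1 and PLIN5 were too low to test. With scaling by library size alone the median log2FC of all tested genes moved from −0.03 to −0.33 and the share of calls that were higher in HGA from 50.2% to 32.8%, while the 8 tested members kept their direction. The plot of levels by sample shows all 10 members.

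**Figure D1:**
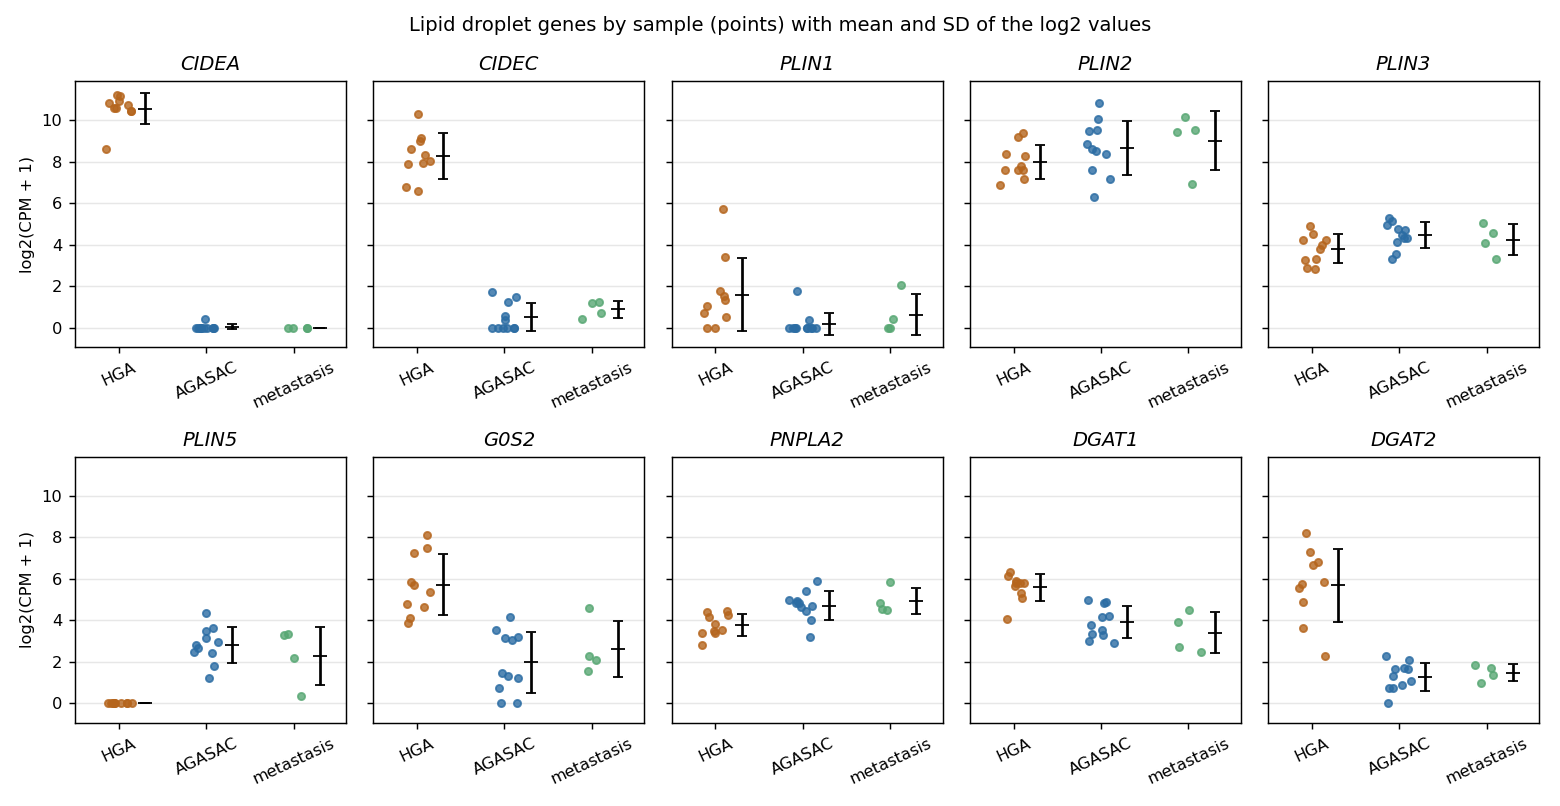
Level of each member in log2(CPM + 1) (y axis) in the 10 HGA, 11 primary AGASAC and 4 metastases (points), with the mean and SD of the log2 values beside them. CIDEA and CIDEC lie in separate ranges in HGA and in both AGASAC groups, PLIN5 is at 0 in all 10 HGA, and PLIN2 and PLIN3 overlap between all groups.

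Among the proteins of droplet fusion, CIDEA had 386 CPM in the lowest HGA (HGA 10), a median of 1627 CPM and 2365 CPM in the highest (HGA 6). In AGASAC, 10 of 11 tumors had 0 counts of CIDEA and AGASAC 6 had 1 count (0.345 CPM), and the 4 metastases had 0 counts. Pooled over the 11 AGASAC, that 1 count is 0.0281 CPM, and the mean HGA level of 1647 CPM was 58689 times as high, with a counting interval of 10534 to 2318091. The fitted log2FC was 14.56 ± 0.46 (SE; edgeR, BY-adjusted p = 1.04e-15). CIDEC, the fusion protein of large fat droplets, had 96.5 CPM in the lowest HGA (HGA 6), a median of 292 CPM and 1264 CPM in the highest (HGA 2). Of the AGASAC, 6 of 11 had 0 counts of CIDEC, and the highest was AGASAC 2 at 2.29 CPM (7 counts). CIDEC was higher in HGA by a log2FC of 9.41 ± 0.68 (SE; edgeR, BY-adjusted p = 1.44e-09). For neither gene did an HGA overlap with an AGASAC, and both were called within each of the extraction batches 5, 6 and 8, at log2FC of 13.07 to 15.81 for CIDEA and of 6.21 to 11.31 for CIDEC. Every AGASAC of batches 5 and 8 had 0 counts of CIDEA, so its fitted log2FC there are not measured sizes.

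The perilipins differed from the CIDE genes and from each other. PLIN2, the perilipin of most cell types, had 115 CPM in the lowest HGA (HGA 1), a median of 206 CPM and 658 CPM in the highest (HGA 10). Over the AGASAC, PLIN2 had 76.7 CPM in the lowest tumor (AGASAC 10), a median of 389.6 CPM and 1837 CPM in the highest (AGASAC 11), a 23.9-fold range. The ranges overlapped, and the log2FC of −0.93 (95% interval −1.84 to −0.02) was not called (edgeR, BY-adjusted p = 0.877). PLIN3, which moves from the cytosol onto young droplets, ranged from 6.15 to 28.5 CPM in HGA (median 13.9) and from 9.04 to 38.2 CPM in AGASAC (median 21.4), with a log2FC of −0.63 (95% interval −1.24 to −0.01; edgeR, BY-adjusted p = 0.860). Both intervals lie below 0, but neither gene passed the adjustment over all genes.

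PLIN5, which links droplets to mitochondria in tissues that burn fat, had 0 counts in all 10 HGA. The AGASAC had 1.31 CPM in the lowest tumor (AGASAC 2), a median of 6.02 CPM and 19.6 CPM in the highest (AGASAC 7), and no AGASAC was at 0. Its mean level in HGA was at least 68.4-fold lower than in AGASAC, with a floor of 3 counts over the 10 HGA (0.106 CPM). PLIN5 was removed by the filter on low counts. Without that filter it was called lower in HGA at a log2FC of −7.48 (edgeR, BY-adjusted p = 1.93e-05), as were 8.39% of the genes then tested. DESeq2 also called it lower (log2FC −6.68, BY-adjusted p = 3.12e-14), as it did 9.73% of its genes. The filter depends on the size of the smaller group, and PLIN5 passed it and was called in each of the 10 fits with an HGA left out. Within batches 5, 6 and 8 it had a log2FC of −7.86, −6.85 and −7.73, none called. As every HGA had 0 counts, the fitted log2FC of PLIN5 are not measured sizes. Skeletal muscle expresses PLIN5, and the 10 muscle markers summed to 2.28 to 31.2 CPM in HGA and 8.51 to 928 CPM in AGASAC. Of these markers 9 of 10 were detected in HGA, MYH1 being at 0 counts, and all 10 in AGASAC. The authors cut away tissue next to the tumor before extraction, and the part of muscle in the PLIN5 levels was not tested.

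PLIN1, the perilipin of fat cells, was low outside HGA 2. It had 0 counts in 2 of 10 HGA (HGA 3 and HGA 10), a median of 1.30 CPM and 52.0 CPM in HGA 2, and the next highest HGA (HGA 8) had 9.45 CPM. Of the AGASAC, 9 of 11 had 0 counts of PLIN1, and AGASAC 6 was highest at 2.41 CPM. The groups overlapped and PLIN1 was removed by the filter. Without the filter it was called higher in HGA (log2FC 4.62, edgeR, BY-adjusted p = 0.0282), as were 7.85% of the genes then tested, whereas DESeq2 gave a log2FC of 2.85 and did not call it (BY-adjusted p = 0.636).

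In the lipolysis step, PNPLA2, the enzyme, and G0S2, its inhibitor, stood on opposite sides. G0S2 had 13.7 CPM in the lowest HGA (HGA 7), a median of 45.8 CPM and 277 CPM in the highest (HGA 4). The AGASAC had 0 counts in 2 tumors (AGASAC 1 and 8), a median of 1.75 CPM and 16.7 CPM in the highest (AGASAC 4), so that HGA 7 and HGA 9 overlapped with AGASAC 4. G0S2 was higher in HGA by a log2FC of 4.04 ± 0.71 (SE; edgeR, BY-adjusted p = 0.000535). PNPLA2 had 6.02 CPM in the lowest HGA (HGA 10), a median of 11.9 CPM and 20.8 CPM in the highest (HGA 9). In AGASAC it had 8.32 CPM in the lowest tumor (AGASAC 9), a median of 27.1 CPM and 58.8 CPM in the highest (AGASAC 2). PNPLA2 was lower in HGA by a log2FC of −1.02 ± 0.28 (SE; edgeR, BY-adjusted p = 0.0472), and the ranges overlapped.

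This call of PNPLA2 lay close to both thresholds. It was lost in 16 of 21 fits with a tumor left out, where the log2FC ranged from −1.12 to −0.86 and the edgeR BY-adjusted p from 0.0105 to 0.113. It was kept without AGASAC 6, AGASAC 9, HGA 4, HGA 8 or HGA 9, and lost without any of the other tumors. It was also lost with the extraction batch as a term (log2FC −0.92) or neutering as a term (log2FC −1.11), and within batches 5, 6 and 8 the log2FC was −0.37, −0.73 and −1.77.

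Of the enzymes that complete triglyceride synthesis, DGAT1 had 15.9 CPM in the lowest HGA (HGA 10), a median of 54.6 CPM and 80.0 CPM in the highest (HGA 2). In AGASAC it had 6.54 CPM in the lowest tumor (AGASAC 2), a median of 12.6 CPM and 30.4 CPM in the highest (AGASAC 7). HGA 10 alone lay within the AGASAC range, and DGAT1 was higher in HGA by a log2FC of 1.69 ± 0.31 (SE; edgeR, BY-adjusted p = 0.000827). DGAT2, the enzyme tied to newly made fatty acids, had 3.82 CPM in the lowest HGA (HGA 9), a median of 55.1 CPM and 290 CPM in the highest (HGA 2), a 76.0-fold range. In AGASAC it had 0 counts in AGASAC 8, a median of 1.46 CPM and 3.82 CPM in the highest tumor (AGASAC 5). HGA 9 and AGASAC 5 were equal to the third digit, and the other 9 HGA were all higher than every AGASAC. DGAT2 was higher in HGA by a log2FC of 5.69 ± 0.62 (SE; edgeR, BY-adjusted p = 9.10e-07).

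Counted by level alone with no tolerance, 3 members (CIDEA, CIDEC and DGAT2) were higher in every HGA than in every AGASAC, as were 4.37% of the tested genes, but for DGAT2 this rests on 9 counts in HGA 9 against 11 counts in AGASAC 5, a gap within counting error. By the same count 1 member (PLIN5) was lower, as were 4.76% of the tested genes, among which PLIN5 itself is not counted. HGA and AGASAC differed in neutering, and with neutering as a term the 5 higher members were called as before, with log2FC of 14.36 (CIDEA), 10.01 (CIDEC), 4.04 (G0S2), 1.78 (DGAT1) and 6.28 (DGAT2). With the extraction batch as a term, in the 18 tumors of batches that held both types, they were 14.54, 8.92, 3.80, 1.71 and 5.58, all called. Within single batches, which hold 5 or 6 tumors, CIDEA and CIDEC alone were called. There G0S2 had a log2FC of 4.60, 3.06 and 2.63 in batches 5, 6 and 8, DGAT1 one of 1.26, 1.47 and 2.47, and DGAT2 one of 7.22 and 4.59 in batches 6 and 8. Within naming series A (9 HGA, 3 AGASAC) all 5 were called.

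**Figure D2:**
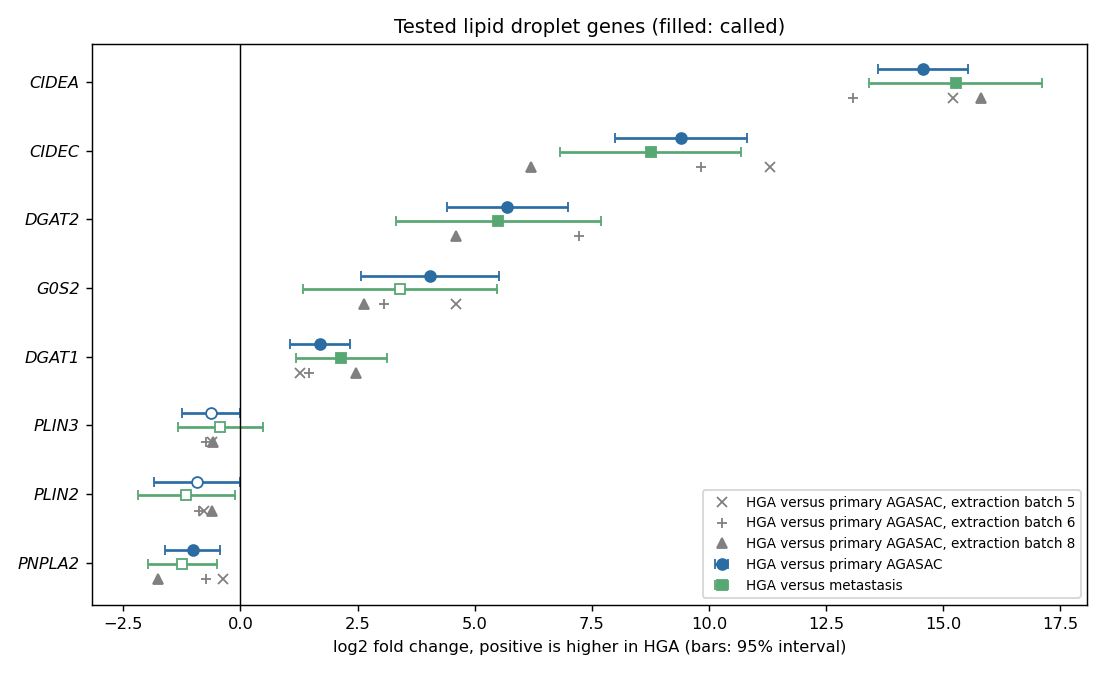
Log2FC of the 8 members tested in both comparisons (x axis, positive is higher in HGA), for HGA versus primary AGASAC (circles) and HGA versus metastasis (squares) with 95% intervals, filled where called, and for HGA versus AGASAC within extraction batches 5, 6 and 8 (gray). CIDEA, CIDEC, DGAT2, G0S2 and DGAT1 lie to the right in every fit shown, and PLIN3, PLIN2 and PNPLA2 to the left.

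The HGA also differed among themselves. HGA 2 had the highest level of 5 of the 9 members detected in HGA (CIDEC, PLIN1, PLIN3, DGAT1 and DGAT2), and HGA 10 had the lowest level of 3 (CIDEA, PNPLA2 and DGAT1) and the highest of PLIN2. Over the HGA the CV was 34.2% for CIDEA and 35.5% for DGAT1, beside 85.2% for CIDEC and 100% for DGAT2. G0S2 had a CV of 106% and was highest in HGA 4 (277 CPM), HGA 10 (179 CPM) and HGA 2 (150 CPM). Without HGA 2 and HGA 10, a choice made after their levels were seen, HGA versus AGASAC gave 5 members called higher and 1 called lower, which was then PLIN5, as PNPLA2 had a log2FC of −0.88 and was not called.

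**Figure D3:**
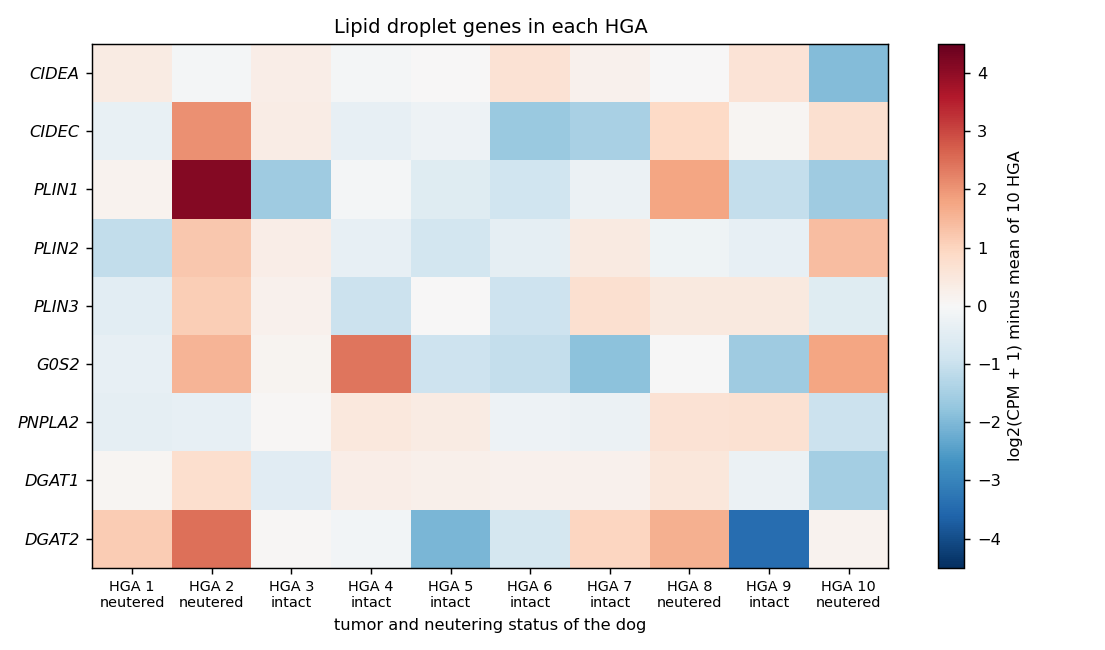
Level of 9 members in each of the 10 HGA as the difference of log2(CPM + 1) from the mean of the 10 HGA (color; red is above the mean, blue below), with the neutering status of the dog under each tumor. PLIN5 is left out, since it had 0 counts in all 10. HGA 2 is red in CIDEC, PLIN1 and DGAT2, HGA 10 is blue in CIDEA and DGAT1, and HGA 9 is blue in DGAT2.

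In the comparison of the metastases with HGA, CIDEA, CIDEC, DGAT1 and DGAT2 were lower in the metastases. This comparison shares its HGA with the one above, so the values are given side by side and add no separate evidence on HGA. Of the 10 members 8 were tested, 4 were called lower, where 8.40% of the 13195 tested genes were, and 0 were called higher, where 7.69% were. With scaling by library size alone the median log2FC of all tested genes moved from −0.02 to 0.26 and the share of calls that were higher in the metastases from 47.8% to 63.7%.

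CIDEA had 0 counts in all 4 metastases, and its mean level in HGA was at least 7185-fold higher, with a floor of 3 counts over the 4 metastases (0.229 CPM). CIDEC had 1.30, 1.33, 0.322 and 0.639 CPM in metastases 1 to 4 and a log2FC of −8.75 ± 0.92 (SE; edgeR, BY-adjusted p = 2.79e-05). Both genes were thus at or near 0 in every metastasis. DGAT2 had 0.973, 2.65, 1.61 and 2.24 CPM and a log2FC of −5.50 ± 1.03 (SE; edgeR, BY-adjusted p = 0.00683). DGAT1 had 4.54, 5.57, 21.9 and 14.4 CPM, of which metastasis 3 lay above HGA 10. It was lower in the metastases by a log2FC of −2.15 ± 0.46 (SE; edgeR, BY-adjusted p = 0.0183), and this call was lost without metastasis 1 (log2FC −1.88), metastasis 2 (−1.92) or metastasis 4 (−2.27), and with scaling by library size alone (−1.87).

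The remaining members were not called in this comparison. G0S2 had 1.95, 3.18, 3.86 and 23.3 CPM in metastases 1 to 4, where only metastasis 4 lay within the range of HGA, and a log2FC of −3.40 (95% interval −5.47 to −1.33; edgeR, BY-adjusted p = 0.136). Without metastasis 4 it was called (log2FC −4.82, edgeR BY-adjusted p = 0.0470), as it was by DESeq2, which called 7.31% of its genes lower. PNPLA2 had 21.7, 57.3, 27.98 and 22.4 CPM, all above the highest HGA, and a log2FC of 1.25 (95% interval 0.51 to 1.98; edgeR, BY-adjusted p = 0.115). PLIN2 had 684, 120.2, 1140 and 736 CPM with a log2FC of 1.16 (edgeR, BY-adjusted p = 0.854). PLIN3 had 8.76, 22.5, 31.5 and 15.7 CPM with a log2FC of 0.43 (edgeR, BY-adjusted p = 1). Both overlapped with HGA.

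PLIN5 had 9.08, 0.265, 3.54 and 8.95 CPM in metastases 1 to 4, from 28, 1, 11 and 28 counts, and 0 in HGA. Its mean in HGA was at least 51.5-fold lower than in the metastases by the same floor. The muscle markers summed to 2.12 to 8.31 CPM in the metastases, where 5 of 10 (CKM, MYH1, MYH2, TNNT1 and TNNT3) were at 0 counts in all 4 and the other 5 (MYLPF, DES, ACTA1, MYH7 and MB) were detected, at up to 6.39 CPM for DES. Their part in the PLIN5 levels was not tested here either. PLIN1 had 0, 3.18, 0 and 0.319 CPM, of which metastasis 2 lay above its own AGASAC, at 0 counts. By level alone, 3 members (CIDEA, CIDEC and DGAT2) were lower in every metastasis than in every HGA, as were 7.38% of the tested genes. By the same count 2 (PLIN5 and PNPLA2) were higher, as were 8.72% of the tested genes, among which PLIN5 is not counted. For DGAT2 this rests on 10 counts in metastasis 2 against 9 in HGA 9. For PLIN5 it rests on 1 count in metastasis 2 against 0 in HGA. For PNPLA2 it rests on 67 counts in metastasis 1 against 49 in HGA 9 (21.7 and 20.8 CPM). These gaps are within counting error.

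The metastases were then set against the primary AGASAC of the same 4 dogs, which asks whether the droplet genes changed between the sites. No member was called. Of the 10 members 6 passed the filter, with CIDEA, CIDEC, PLIN1 and DGAT2 too low to test, and 0 of the 12629 tested genes (0%) were called by edgeR, beside 145 at an unadjusted p under 0.05 and 5 by DESeq2. The log2FC of metastasis over primary was 0.43 for PLIN2 (95% interval −1.07 to 1.93), −0.23 for PLIN3 (−1.34 to 0.88) and −0.15 for PLIN5 (−2.11 to 1.80). It was 0.70 for G0S2 (−2.12 to 3.51), −0.11 for PNPLA2 (−1.03 to 0.81) and 0.13 for DGAT1 (−1.15 to 1.41), all with an edgeR BY-adjusted p of 1. This fit has no term for the dog, and its intervals reach beyond a 2-fold change in at least 1 direction for all 6 genes.

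Within dogs, G0S2 was higher in the metastasis in 4 of 4 dogs, with 0 and 1.95 CPM in dog 1, 1.31 and 3.18 in dog 2, 1.48 and 3.86 in dog 3, and 16.7 and 23.3 in dog 4 (primary first). The primary tumor of dog 1 had 0 counts and its metastasis 6. Dogs 2 and 3 had 4 and 5 counts of G0S2 in the primary and 12 in each metastasis. PLIN3 was lower in the metastasis in 4 of 4 dogs, at 0.969, 0.750, 0.916 and 0.828 of the primary level. These came from 30, 92, 116 and 68 counts in the primary and 27, 85, 98 and 49 in the metastasis, small steps for such counts. How many of all genes had 1 direction in all 4 dogs was not counted, so these directions are a description only. PLIN2 was 2.92-fold higher in the metastasis of dog 3 and 0.965, 0.844 and 1.00 of the primary level in dogs 1, 2 and 4. With the dog as a block in edgeR no member was called either, and 1 of all genes was. The blocked 95% intervals were narrower, at −0.70 to 0.25 for PLIN3, −0.55 to 0.26 for PNPLA2 and −0.95 to 0.95 for DGAT1, which lie within a 2-fold change. They were −0.41 to 1.01 for PLIN2, −1.54 to 0.91 for PLIN5 and −0.098 to 2.58 for G0S2.

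**Figure D4:**
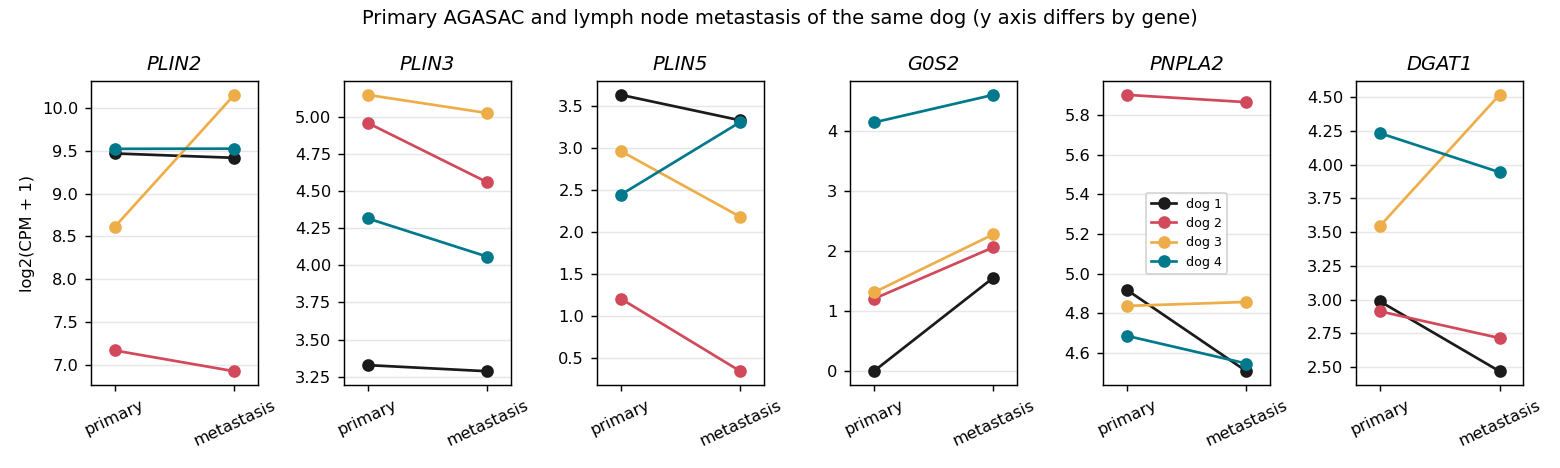
Level in log2(CPM + 1) (y axis, its range differs by gene) of the 6 members tested between the sites, in the primary AGASAC and the lymph node metastasis of the same dog, joined by a line for each of 4 dogs. On all 4 lines G0S2 is higher and PLIN3 lower at the metastasis, and the largest differences of PLIN2 and DGAT1 are in dog 3. How many of all genes had 1 direction in all 4 dogs was not counted.

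Within HGA, the tumors of 6 intact and 4 neutered dogs were compared, since neutering also differed between the tumor types. No member was called, and 0 of the 11906 tested genes (0%) were called by edgeR, beside 1167 at an unadjusted p under 0.05 and 22 by DESeq2. CIDEC had a median of 249 CPM in intact dogs (96.5 to 384) and of 537 CPM in neutered dogs (240.2 to 1264), with a log2FC of intact over neutered of −1.47 (95% interval −2.51 to −0.43; edgeR, BY-adjusted p = 1). DGAT2 had a median of 37.5 CPM in intact dogs (3.82 to 101) and of 134 CPM in neutered dogs (57.2 to 290), with a log2FC of −1.93 (95% interval −3.37 to −0.49; edgeR, BY-adjusted p = 1). Ranges overlapped for both genes. HGA 2 and HGA 10 are both of neutered dogs, and without them the log2FC was −0.78 for CIDEC and −1.71 for DGAT2.

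CIDEA had a median of 1776 CPM in intact and 1461 CPM in neutered dogs (log2FC 0.50), and without HGA 2 and HGA 10 its log2FC was 0.12. PLIN2 had a log2FC of −0.83 that became 0.44 without these tumors, and G0S2 one of −0.61 that became 0.61. PLIN3 had a log2FC of −0.26 that became 0.023 without both and 0.19 without HGA 2 alone, and DGAT1 one of −0.13 that became −0.26 without both but 0.13 without HGA 2 alone and 0.025 without HGA 8 alone. The values of PLIN2, G0S2, PLIN3 and DGAT1 thus changed direction with the tumors left out, and that of PNPLA2 went from 0.39 to 0.020 without HGA 2 and HGA 10.

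Beside the members, 45 other genes of droplet coat and fusion, lipolysis, synthesis, droplet formation and sterol ester storage were listed, of which 44 were in the table and 33 were tested in HGA versus AGASAC. Of these 33, 8 were higher in HGA, where 12.6% of all tested genes were, and 4 were lower, where 12.5% were, so that the lower share is close to that of all genes. They had a median log2FC of 0.59 beside −0.03 over all tested genes. These lists, too, were chosen with earlier results of these data known. In lipolysis, 3 of 7 tested genes were higher and 0 lower: LIPA, the lysosomal acid lipase (log2FC 3.71), ABHD5, the activator of PNPLA2 (3.24), and LIPE, the hormone-sensitive lipase (1.90). The only tested gene of the coat list, HILPDA, which also inhibits PNPLA2, was higher (2.83). ABHD5 had 34.0 to 488 CPM in HGA (median 226) and 8.96 to 42.4 CPM in AGASAC (median 27.96), and the ranges overlapped.

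In synthesis, 2 of 14 tested genes were higher and 2 lower, shares close to the 12.6% and 12.5% of all tested genes. The higher ones were AWAT2, a wax ester synthase of sebaceous secretions (log2FC 8.19), and AGPAT4, an acyltransferase of phosphatidic acid synthesis (4.33). The lower ones were LPIN2, a phosphatidate phosphatase (−2.33), and FAR2, a reductase that makes fatty alcohols (−4.81). FAR2 had 761 CPM in AGASAC 2 against a median of 8.26 CPM over the 11 primary tumors, and without that tumor its log2FC was −2.79 and it was not called. Its call was also lost without HGA 1, 2, 3, 5, 6, 7 or 9, with DESeq2 (−2.64) and with neutering as a term (−3.59). AWAT2 had 1 count over the 11 AGASAC together, and its mean HGA level of 19.8 CPM was 705.6 times the pooled AGASAC level (counting interval 126.6 to 27870). Of 9 tested genes of droplet formation, 1 was higher and 1 lower, also close to the shares of all tested genes. BSCL2 (seipin) was higher (1.22), but with scaling by library size alone it was at 0.90 and not called. ACSL3, an acyl-CoA synthetase of young droplets, was lower (−2.38). Of the sterol ester genes, SOAT1, which makes cholesterol ester, was higher (3.93) and NCEH1, which splits it, was lower (−3.59). The edgeR BY-adjusted p of these 12 genes lay between 1.18e-10 and 0.0283.

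**Figure D5:**
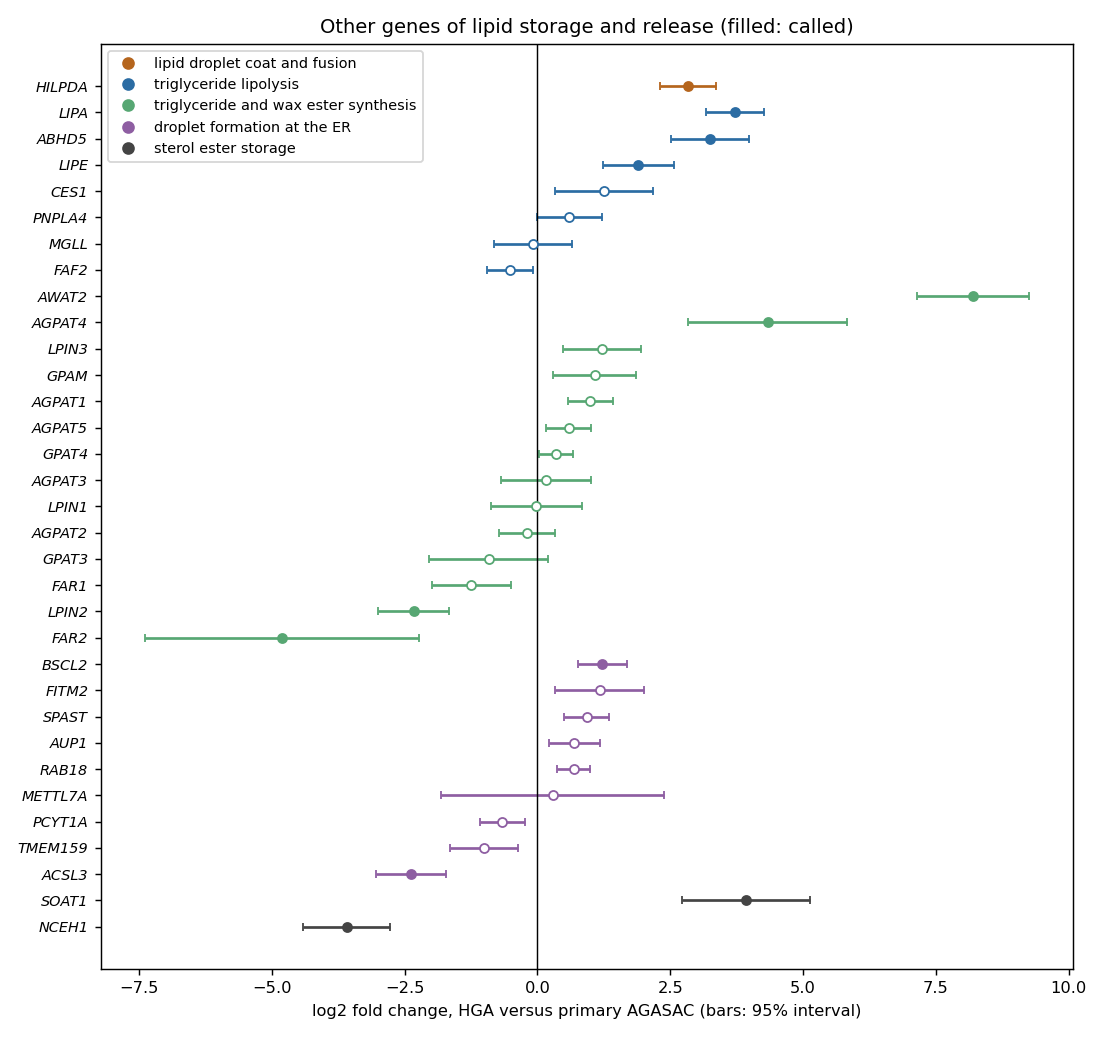
Log2FC of HGA versus primary AGASAC (x axis, bars are 95% intervals) for the 33 tested genes of the 5 other lists of lipid storage and release (colors), filled where called. The 8 genes called higher include 3 of 7 lipolysis genes, where 12.6% of all tested genes were called higher, and FAR2 has the widest interval.

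Against the metastases, 36 of these genes were tested, 8 were lower in the metastases, where 8.40% of all tested genes were, and 4 were higher, where 7.69% were. They had a median log2FC of −0.78 beside −0.02 over all tested genes. The lower ones were HILPDA (−2.11), PLIN4, another perilipin of fat cells (−8.22), LIPA (−3.94), ABHD5 (−3.27), LIPE (−2.43), PNPLA3, a lipase close to PNPLA2 (−8.13), AWAT2 (−8.90) and AGPAT4 (−5.46). The higher ones were LPIN2 (2.27), FAR2 (5.19), ACSL3 (2.74) and NCEH1 (3.83), with an edgeR BY-adjusted p of 2.69e-05 to 0.0194 over the 12 genes. PLIN4 had 0.430 CPM in the lowest HGA (HGA 10), a median of 34.7 and 69.1 CPM in the highest (HGA 1), and 1 count over the 4 metastases (0.265 CPM in metastasis 2). PNPLA3 and AWAT2 had 0 counts in all 4 metastases, so their fitted log2FC are not measured sizes, and their mean HGA levels were at least 50.9-fold and 86.4-fold higher by the floor of 3 counts over the 4 metastases. In AGASAC 8 of 11 tumors had 0 counts of PLIN4, which was not tested there. The call of PNPLA3 was lost without any 1 of the 4 metastases, that of AGPAT4 without metastasis 1 or 2 and that of FAR2 without metastasis 2. Between metastasis and matched primary 0 of 31 tested genes were called, and between intact and neutered dogs 0 of 32.

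Fat cells express most of these members, so 11 adipocyte markers were measured beside them, in tumors from which the authors had cut away adjoining tissue. They summed to 38.3 to 429 CPM in HGA (median 158), 16 to 414 CPM in AGASAC (median 53.4) and 28.3 to 97.1 CPM in the metastases (median 34.2). In HGA, LPL was at 14.2 to 281 CPM and FABP4 at 10.6 to 41.1 CPM, while in AGASAC they were at most 8.96 and 4.51 CPM. CFD and GPD1 overlapped between the groups. CFD was at 0 to 80.4 CPM in HGA and 5.55 to 22.7 CPM in AGASAC. GPD1 was at 0 to 170 CPM in HGA and 0 to 4.82 CPM in AGASAC. ADIPOQ, the marker made by fat cells, was at most 22.5 CPM in HGA (HGA 7) and reached 399.5 CPM in AGASAC 11, 219.0 in AGASAC 5, 189.5 in AGASAC 6 and 129.7 in AGASAC 8. ADIPOQ made up most of the adipocyte sums of those 4 tumors (413.6, 234.6, 215.7 and 147.4 CPM). FABP4 was at 0.486, 4.51, 0.345 and 0 CPM in them and LPL at 1.2, 4.2, 8.96 and 7.4 CPM. Both were below their level in every HGA, so the markers differed, and whether those tumors held more fat cells was not tested. CIDEC was at 0.486, 0, 1.38 and 0 CPM in them. HGA 2, with the highest CIDEC and PLIN1, had an adipocyte sum of 174.5 CPM, near the HGA median. Of the 11 markers 6 were detected there, LPL at 86.3 CPM, CFD at 69.6, FABP4 at 11.8, RETN at 4.07, the highest of the HGA, GPD1 at 2.26 and ADIPOQ at 0.452, and LEP, AQP7, THRSP, TUSC5 and ADRB3 were at 0 counts. The part of fat cells in the member levels was not tested.

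CIDEA is also known from brown fat. The 5 detected brown adipocyte markers summed to 0 to 8.20 CPM in HGA, 2.97 to 36.9 CPM in AGASAC and 4.54 to 98.1 CPM in the metastases, and UCP1 and LHX8 had 0 counts in all HGA. Macrophages can hold droplets coated by PLIN2, and 10 macrophage markers summed to 94.2 to 343 CPM in HGA, 190.0 to 557 CPM in AGASAC and 177.5 to 508 CPM in the metastases. AGASAC 11, with the highest PLIN2, had the lowest macrophage sum of the AGASAC, and metastasis 2, with the lowest PLIN2 of the metastases, had the highest. These tumors were picked by their levels, and others differed. The tumor lowest in PLIN2, AGASAC 10, had a sum of 345 CPM, near the median of 348 CPM. The tumor with the highest sum, AGASAC 6 (557 CPM), had 335 CPM of PLIN2. No relation over all tumors was tested. The 6 B cell markers summed to 6.15 to 50.5 CPM in HGA, 13.4 to 39.8 CPM in AGASAC and 21.2 to 38.6 CPM in the metastases, and the 6 T cell markers to 2.45 to 48.9, 16.7 to 113 and 39.9 to 63.0 CPM. The part of immune cells in the member levels was not tested.

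Some members lie close to other genes in the RefSeq annotation of another assembly (UU_Cfam_GSD_1.0), and the counting is not stated to have used strand. G0S2 overlaps LAMB3, a laminin chain of stratified epithelium, which had a log2FC of 7.34 in HGA versus AGASAC (edgeR, BY-adjusted p = 3.11e-08). PNPLA2 lies within 2 kb of CRACR2B (log2FC −2.07) and PLIN5 within 2 kb of LRG1 (log2FC −3.81), which move in the same direction as these members. DGAT1 lies within 2 kb of HSF1 (log2FC 0.42, not called) and overlaps SCRT1, and PLIN3 overlaps LOC119864777. SCRT1 and LOC119864777 are not in the count table. How reads were shared between these neighbors was not tested, so the values of G0S2, PNPLA2, PLIN5, DGAT1 and PLIN3 are uncertain to that extent.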

How the data were processed

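RNA of archived FFPE tumors was sequenced with QuantSeq 3′. The authors trimmed the reads with Cutadapt, aligned them to CanFam3.1 with STAR and counted them with featureCounts, at last on an annotation extended by 2 kb at the 3′ end, splitting multi-mapped reads evenly (versions not given in the sources used here). The deposited values used here are these raw counts, whole numbers for each gene in each tumor. The authors' deposited columns of normalized signal, log2 fold change, p-value and adjusted p-value were not used.

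The fits were made with edgeR 4.0.16 under R 4.3.3, after filterByExpr (minimum count 10, minimum total 15) and TMM, by the quasi-likelihood test over all genes of the samples compared, with no covariate. SE is the log2FC divided by the root of F. Plots use a pseudocount of 1. Metastases and primary tumors 1 to 4 pair by dog in the labels, with correlations of their deviations of 0.422 to 0.713. Alternatives were RLE, library size alone, no filter, DESeq2 1.42.0, Benjamini-Hochberg adjustment, all 15 AGASAC samples, batch, DV200, neutering or sex as a term, single batches, and each sample left out. The script was tested on simulated data. All 10 members, and up to 4 called genes of each other list, were named. The members and lists were chosen with earlier results of these data known. P-values measure the spread between these tumors. Sequences are not printed.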

Additional observations from a re-analysis of the deposited data

Results flagged for a closer look

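In each group of 4 to 10 samples, the highest and the lowest value were set against the rest by Dixon's test at the 95% level, for the members and the marker sums. Of 34 groups tested, 11 had a value that stood apart. A chance rate of about 1 in 20 would hold only for separate groups of normally distributed values. These groups share tumors, and their CPM values are skewed for some genes, so the count of 11 cannot be set against chance.

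Among the HGA, CIDEA was low in HGA 10 (386 CPM). HGA 2 was high in CIDEC (1264 CPM), PLIN1 (52.0 CPM) and DGAT2 (290 CPM). The summed markers of B cells (50.5 CPM) and T cells (48.9 CPM) were high in HGA 8, and those of sebaceous and squamous epithelium (15739 CPM) in HGA 9. Among the metastases, PLIN1 was high in metastasis 2 (3.18 CPM). Metastasis 4 was high in G0S2 (23.3 CPM), in the summed adipocyte markers (97.1 CPM) and in the summed brown adipocyte markers (98.1 CPM). Most of these sums came from single genes, ADIPOQ (73.8 CPM) and DIO2 (93.0 CPM). The cause was not tested for any of these values.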

How the results depend on the processing

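In HGA versus AGASAC, the count of members higher in HGA was 5, 6 without the filter (PLIN1 joined) and 2 within each of extraction batches 5, 6 and 8, where all calls went from 3032 to 262, 637 and 338. The count lower in HGA was 1. It was 2 without the filter, with DESeq2 and with all 15 AGASAC samples, where PLIN5 joined PNPLA2, and 0 with the batch or neutering as a term and within batches 5, 6 and 8 and naming series A. Of the other pathway genes 8 were higher (1, 2 and 1 in batches 5, 6 and 8, 7 with library size alone) and 4 lower (0 in batches 5 and 8, 6 with library size alone, 7 with all 15 AGASAC samples). FAR2 was reversed in batch 5 (0.79). The batches hold 5 or 6 tumors each. In metastasis versus HGA, 0 members were higher, but 1 with library size alone (PNPLA2), without the filter (PLIN5) and with Benjamini-Hochberg adjustment (PNPLA2), and 2 with DESeq2. All calls in HGA versus AGASAC were 3951 without the filter and 4508 with DESeq2.

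With a tumor left out, members called in HGA versus AGASAC were 5 to 5 higher and 0 to 2 lower, and other pathway genes 8 to 10 and 3 to 6. In metastasis versus HGA, members were 3 to 4 lower and 0 to 0 higher, and pathway genes 6 to 9 and 3 to 4. Some values changed direction on leaving out a sample or, in metastasis versus primary, both samples of a dog. PLIN2 did so only without both samples of dog 3. G0S2 did so only without metastasis 4, with its primary tumor kept. In metastasis versus primary they ranged from −0.36 to 0.53 (DGAT1), −0.73 to 3.08 (G0S2), −0.055 to 0.78 (PLIN2), −0.55 to 0.021 (PLIN3), −0.63 to 0.35 (PLIN5) and −0.56 to 0.27 (PNPLA2). In intact versus neutered dogs they ranged from −0.43 to 0.13 (DGAT1) and −0.48 to 0.19 (PLIN3).

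With the replicate block (dog), the log2FC was 0.30 for PLIN2, −0.22 for PLIN3, −0.31 for PLIN5, 1.24 for G0S2, −0.14 for PNPLA2 and 0.00 for DGAT1 (−0.013 with DESeq2), and no member call changed. With sex as a term DGAT1 was 0.16 in intact versus neutered dogs, and without HGA 2 and HGA 10 PLIN2 was 0.44, PLIN3 0.023 and G0S2 0.61. The cause of these changes was not tested. Neutering as a term, the fits without HGA 2 and HGA 10, the block with DESeq2 and correlations with a tumor left out were chosen after seeing the data.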

Other observations

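Over the 21 primary tumors, after the mean of each tumor type was removed, the log2 levels of the members followed each other weakly. The Pearson correlations of the 28 pairs of tested members ranged from −0.45 (G0S2 with CIDEA) to 0.45 (DGAT1 with CIDEA; −0.054 without HGA 10), with a median of 0.12, and they are given as a description over tumors that share depth and batches. The tested genes most like a member were HAO2 (0.92) and KRT79 (0.92) for CIDEA. As CIDEA had 0 counts in 10 of 11 AGASAC, these rest on the HGA, and without HGA 10, the lowest in CIDEA, they were 0.85 and 0.33. The others were NUDT5 (0.80) and CES1 (0.72) for CIDEC, and PTPN12 (0.87) and TBC1D10A (0.84) for DGAT2. For DGAT1 they were LOC100855913 and MYADM (0.86 each), and for G0S2 PPP1R3D (0.77) and SETD1A (0.73). For PNPLA2 they were LOC100683691 (0.81) and USP22 (0.79), for PLIN2 LOC111096380 (0.75) and MED12L (0.73), and for PLIN3 RAB3IL1 (0.77) and MARCH1 (0.76). With each tumor left out in turn, the correlations of these other pairs were at least 0.60. Each named gene was picked as 1 of the 2 highest among the 12070 tested genes in these same tumors. The sizes are thus raised by that choice, and leaving a tumor out does not test them. CIDEC had 0 counts in 6 of 11 AGASAC, so its pairs rest largely on the HGA.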
